A study of Capra hircus with 10 samples.

Results

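In the present study, the expression of the sterol sensing genes of the SREBP and LXR systems was described in goat ovaries of the luteal and follicular phases. The genes were SREBF1, SREBF2, SCAP, INSIG1, INSIG2, NR1H3, NR1H2 and MYLIP, chosen by their symbols among the protein-coding transcripts. All 8 were found among 20587 gene symbols, and they held 14 of 43766 protein-coding transcripts. The data came from ovaries of Anhui white goats (Capra hircus) collected at a slaughterhouse, 5 of the luteal phase and 5 of the follicular phase. No treatment or allele distinguished the groups, and the ages of the animals were not given in the sources used here. Each library was made from the ribosomal RNA-depleted total RNA of 1 whole ovary, and the sources used here do not say that every ovary came from a different goat. The p-values therefore measure only the spread between these ovaries. In whole-ovary RNA, fewer cells of a type and less RNA per cell cannot be told apart.

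The SREBPs are membrane-bound transcription factors. SREBF2 encodes SREBP2, which mainly activates the genes of cholesterol synthesis and uptake, and SREBF1 encodes SREBP1, which is better known for the genes of fatty acid synthesis. SCAP carries them from the endoplasmic reticulum to the Golgi for cleavage when sterol is low, and INSIG1 and INSIG2 hold SCAP back when sterol is high. The liver X receptors, LXR alpha (NR1H3) and LXR beta (NR1H2), respond to oxysterols when cholesterol is plentiful. One of their targets is MYLIP, also named IDOL, a ubiquitin ligase that sends lipoprotein receptors to degradation. In the ovary, cholesterol made in the cell or taken up from lipoproteins is the substrate of steroid hormones, above all of the progesterone of the corpus luteum.

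The authors deposited an FPKM for each transcript in each ovary, that is, mapped fragments relative to the length of the transcript and to the total of mapped fragments. FPKM of the transcripts of a gene were summed. Since FPKM is scaled by length, levels can be compared between genes. The phases were compared with limma on log2(FPKM + 0.1), luteal minus follicular, with Benjamini-Hochberg adjustment over the 15359 genes tested, and an adjusted p under 0.05 was taken as a call. All fold changes are on this scale. All 8 genes passed the filter on low values. The depth of each ovary is unknown.

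The labelled phases were checked against cell markers. The summed FPKM of 5 corpus luteum markers (STAR, CYP11A1, OXT, PTGFR and LHCGR) lay between 5768 and 7930 in the luteal phase ovaries and between 123 and 172 in the follicular phase ovaries, and all 5 were called higher in the luteal phase. The luteal phase ovaries also had more endothelial marker RNA (184 to 236 against 79.7 to 92.6, 5 of 5 called higher). They had less smooth muscle marker RNA (267 to 487 against 630 to 773, 4 of 4 called lower, and 3 of 4 with a common median or with TPM, where DES was lost). Of 6 granulosa cell markers 3 were called lower in the luteal phase, with summed levels of 92.0 to 639 against 203 to 1054. Of 3 theca cell markers INSL3 and CYP17A1 were called lower and LHCGR, which is also a corpus luteum marker, was called higher, with sums of 105 to 146 against 148 to 220. Of 5 oocyte markers 4 were called lower, with sums of 6.34 to 12.5 against 12.1 to 27.2. For stroma, 1 of 5 markers was called in each direction (1223 to 2300 against 1227 to 1768), and for macrophages 1 of 5 was called higher (59.5 to 81.3 against 34.3 to 66.1). No member of these lists that the table holds was at 0 in any ovary. The part of these cell types in the differences between the phases was not tested. Luteal ovary 3 stood apart. It had the lowest corpus luteum and granulosa sums of its phase and the highest stromal, smooth muscle and oocyte sums. The other luteal ovaries had granulosa sums of 158 to 639 and oocyte sums of 6.34 to 9.38, the latter below every follicular ovary. Levels and ratios of the sterol sensing genes for which luteal ovary 3 lay at an end of its phase are given below with and without it. The transcript shares of SCAP (83.9%) and NR1H3 (92.7%), also highest there in the luteal phase, are given with it only.

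Of the 8 sterol sensing genes, 4 were called, which can be read against 43.7% of all tested genes called. INSIG1, SREBF2 and SCAP were higher in the luteal phase, where 15.9% of all genes were called higher. MYLIP was lower, where 27.8% of all genes were called lower. The luteal and follicular ovaries did not overlap for INSIG1 and MYLIP, 2 of 8 genes, against 28.4% of all genes. The shares of called and of non-overlapping genes were thus near the background. Without luteal ovary 3 the number of called members was also 4. The median log2 fold change was 0.20 over the 8 genes and -0.14 over all tested genes. It was -0.05 over all genes after a shift of every ovary to a common median.

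**Figure D1:**
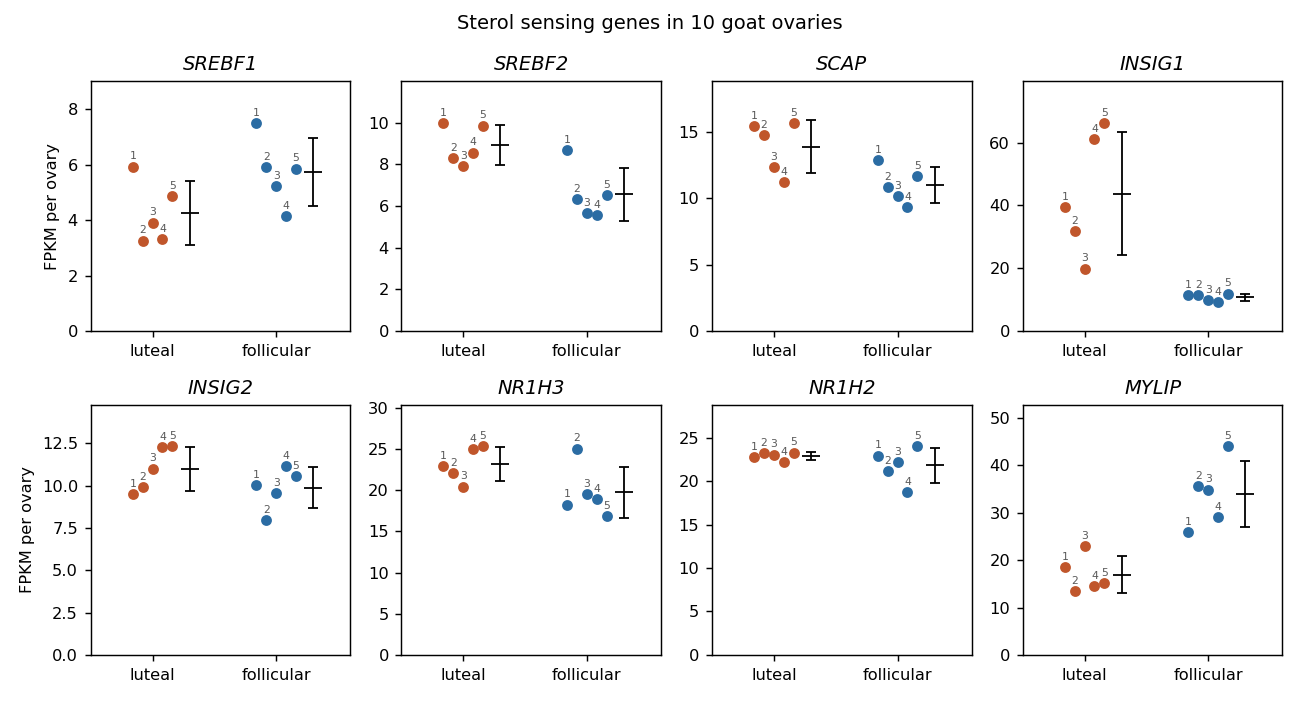
FPKM (y axis) of each sterol sensing gene in each ovary, with 1 panel per gene. Points are single ovaries with their replicate numbers, and the bars give the mean and SD of the 5 ovaries of a phase; INSIG1 (19.9 to 66.3 against 9.34 to 11.97) and MYLIP (13.5 to 22.9 against 25.9 to 44.0) separate the phases without overlap.

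INSIG1 (gene ID 102183937), which retains SCAP in the endoplasmic reticulum and is itself an SREBP target, showed the largest difference between the phases among the 8 genes. Its FPKM was 39.6, 31.8, 19.9, 61.0 and 66.3 in luteal ovaries 1 to 5. In follicular ovaries 1 to 5 it was 11.4, 11.5, 9.84, 9.34 and 11.97. Every luteal ovary lay above every follicular ovary, and luteal ovary 3 was the lowest of its phase. The mean was 43.7 ± 19.6 in luteal and 10.8 ± 1.15 in follicular ovaries (SD, n = 5 each). The log2 fold change was 1.88 (SE 0.28, 95% interval 1.28 to 2.49, limma adjusted p = 0.000352), a fold of 3.68. It ranked at place 299 from the top of 15359 genes. Without luteal ovary 3 the log2 fold change was 2.13 (limma adjusted p = 3.45e-05).

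The spread of INSIG1 also differed in size between the phases. Its highest luteal value was 3.33 times its lowest, and its highest follicular value was 1.28 times its lowest. The SD of log2(FPKM + 0.1) was 0.71 among luteal ovaries, larger than that of 94.9% of tested genes, and 0.16 among follicular ovaries, larger than that of 30.0% of them. The median SD of all genes was 0.20 in luteal and 0.22 in follicular ovaries. The lowest luteal value was that of luteal ovary 3. Without it the highest luteal value was 2.08 times the lowest, and the luteal SD was 0.50, larger than that of 89.4% of tested genes. The difference between these spreads was not tested.

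INSIG2 (gene ID 100861144), the other retention protein, was not called. Its FPKM was 9.50, 9.94, 11.0, 12.3 and 12.3 in luteal ovaries 1 to 5. It was 10.04, 7.98, 9.56, 11.2 and 10.6 in follicular ovaries 1 to 5. The phases overlapped over most of their range. The means were 11.0 ± 1.29 and 9.87 ± 1.21 (SD, n = 5 each), and the log2 fold change was 0.16 (SE 0.11, 95% interval -0.08 to 0.40, limma adjusted p = 0.266). Without follicular ovary 2 it was 0.08 (limma adjusted p = 0.506). With a common median it was 0.24 (limma adjusted p = 0.102), and with TPM 0.26 (0.133).

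SCAP (gene ID 102182269), the escort that senses cholesterol, was higher in the luteal phase by a small margin. Its FPKM was 15.5, 14.8, 12.4, 11.2 and 15.7 in luteal ovaries 1 to 5. It was 12.9, 10.9, 10.2, 9.35 and 11.7 in follicular ovaries 1 to 5. The ranges overlapped: luteal ovaries 3 and 4 lay below follicular ovary 1, and luteal ovary 4 also below follicular ovary 5. The luteal ovary was the higher in 22 of 25 pairs of a luteal and a follicular ovary. The log2 fold change was 0.33 (SE 0.12, 95% interval 0.07 to 0.59, limma adjusted p = 0.0394), with means of 13.9 ± 2.00 and 11.0 ± 1.36 (SD, n = 5 each). This call was close to the threshold. It was lost without luteal ovary 1 (0.29, limma adjusted p = 0.0850), luteal ovary 2 (0.31, 0.0805) or luteal ovary 5 (0.29, 0.0926), and without follicular ovary 2 (0.33, 0.0568), follicular ovary 3 (0.31, 0.0824) or follicular ovary 4 (0.28, 0.0903).

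SREBF2 (gene ID 102189018), the factor of cholesterol synthesis, was higher in the luteal phase. Its FPKM was 9.996, 8.29, 7.93, 8.56 and 9.86 in luteal ovaries 1 to 5. It was 8.68, 6.35, 5.66, 5.56 and 6.53 in follicular ovaries 1 to 5. Follicular ovary 1 stood above luteal ovaries 2, 3 and 4, and the other follicular ovaries stood below every luteal ovary. The means were 8.93 ± 0.942 and 6.56 ± 1.26 (SD, n = 5 each). The log2 fold change was 0.45 (SE 0.13, 95% interval 0.17 to 0.73, limma adjusted p = 0.0145), and the luteal ovary was the higher in 22 of 25 pairs. Without luteal ovary 3, the lowest of its phase, the log2 fold change was 0.49 (limma adjusted p = 0.0152).

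SREBF1 (gene ID 100860908), the factor of fatty acid synthesis, was measured at a lower mean level in the luteal phase but was not called. Its FPKM was 5.93, 3.27, 3.91, 3.31 and 4.87 in luteal ovaries 1 to 5. It was 7.51, 5.90, 5.22, 4.13 and 5.86 in follicular ovaries 1 to 5. Luteal ovaries 1 and 5 lay within the follicular range, while luteal ovaries 2, 3 and 4 lay below every follicular ovary. The means were 4.26 ± 1.14 and 5.73 ± 1.23 (SD, n = 5 each). The log2 fold change was -0.43 (SE 0.19, 95% interval -0.85 to -0.01, limma adjusted p = 0.0900). This outcome changed with single ovaries, since SREBF1 was called without luteal ovary 1 (-0.56, limma adjusted p = 0.0301) or follicular ovary 4 (-0.54, 0.0437). With a shift to a common median the value was -0.35 (limma adjusted p = 0.136).

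NR1H3 (gene ID 100860906), which encodes LXR alpha, was not called. Its FPKM was 22.9, 22.1, 20.4, 25.0 and 25.3 in luteal ovaries 1 to 5. It was 18.3, 25.0, 19.5, 18.9 and 16.9 in follicular ovaries 1 to 5. Follicular ovary 2 was as high as the upper luteal ovaries, and the other follicular ovaries were below every luteal ovary. The means were 23.2 ± 2.05 and 19.7 ± 3.13 (SD, n = 5 each), with a log2 fold change of 0.24 (SE 0.11, 95% interval 0.01 to 0.47, limma adjusted p = 0.0872). NR1H3 was called without follicular ovary 2 (0.33, limma adjusted p = 0.00800), but not without luteal ovary 3, the lowest of its phase (0.28, 0.0600). It was also called with FPKM rescaled to TPM (0.34, 0.0237) or with only its most abundant transcript (0.28, 0.0480).

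NR1H2 (gene ID 102175236), which encodes LXR beta, was the steadiest of the 8 genes in the luteal phase. Its FPKM was 22.8, 23.2, 23.1, 22.2 and 23.3 in luteal ovaries 1 to 5. It was 22.9, 21.2, 22.2, 18.8 and 24.0 in follicular ovaries 1 to 5. The luteal values lay within the follicular range. The highest luteal value was 1.05 times the lowest, and only 0.339% of tested genes had a smaller SD of log2(FPKM + 0.1) in the luteal phase, and 1.33% without luteal ovary 3. The log2 fold change was 0.08 (SE 0.07, 95% interval -0.08 to 0.23, limma adjusted p = 0.416), with means of 22.9 ± 0.444 and 21.8 ± 1.99 (SD, n = 5 each). Without follicular ovary 4, the lowest of its phase, the log2 fold change was 0.02 (limma adjusted p = 0.798), and without follicular ovary 5 it was 0.11 (0.241). With a common median it was 0.16 (limma adjusted p = 0.0615), and with TPM 0.17 (0.155).

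MYLIP (gene ID 102173622), the ubiquitin ligase, was the only 1 of the 8 genes called lower in the luteal phase. Its FPKM was 18.6, 13.5, 22.9, 14.6 and 15.2 in luteal ovaries 1 to 5. It was 25.9, 35.6, 34.9, 29.0 and 44.0 in follicular ovaries 1 to 5. Every luteal ovary lay below every follicular ovary, and luteal ovary 3 was the highest of its phase. The means were 17.0 ± 3.85 and 33.9 ± 6.96 (SD, n = 5 each). The log2 fold change was -0.997 (SE 0.17, 95% interval -1.36 to -0.63, limma adjusted p = 0.000804), so the follicular level was 2.00 times the luteal level. MYLIP ranked at place 703 from the bottom of 15359 genes. Without luteal ovary 3 the log2 fold change was -1.11 (limma adjusted p = 0.000346).

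**Figure D2:**
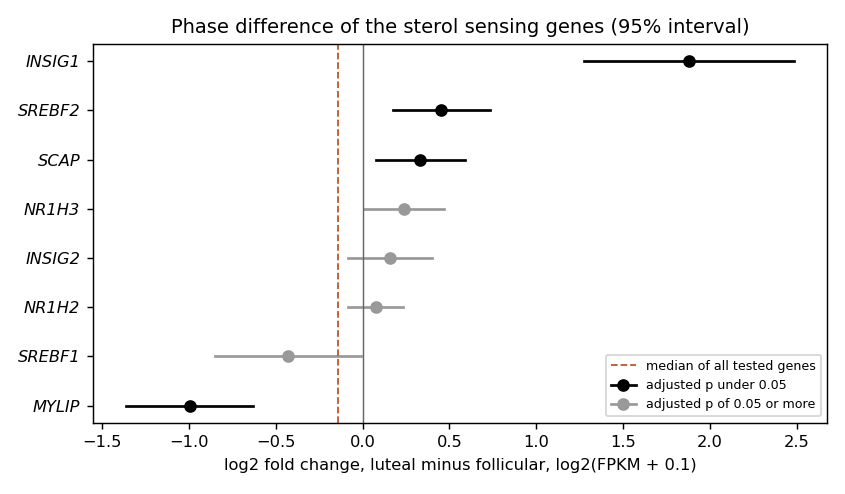
Log2 fold change, luteal minus follicular, on log2(FPKM + 0.1) (x axis) of each sterol sensing gene with its 95% interval. Black marks an adjusted p under 0.05 and the dashed line the median of all tested genes (-0.14); INSIG1 lies farthest to the right at 1.88 and MYLIP farthest to the left at -0.997.

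The order of the levels changed between the phases. In the luteal phase the mean FPKM fell from INSIG1 through NR1H3, NR1H2, MYLIP, SCAP, INSIG2 and SREBF2 to SREBF1. In the follicular phase it fell from MYLIP through NR1H2, NR1H3, SCAP, INSIG1, INSIG2 and SREBF2 to SREBF1. SREBF2 was above SREBF1 in 5 of 5 ovaries of each phase. NR1H2 was above MYLIP in 5 of 5 luteal ovaries, and MYLIP above NR1H2 in 5 of 5 follicular ovaries. NR1H3 and NR1H2 were not separated in either phase, since the gene with the higher mean was the higher in 3 of 5 ovaries. The same held for MYLIP and SCAP in the luteal phase and for SCAP and INSIG1 in the follicular phase. INSIG1 was above NR1H3 in 4 of 5 luteal ovaries, with luteal ovary 3 as the exception.

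Ratios of a pair of genes within an ovary do not depend on how ovaries are scaled to each other. The phases were compared on the log2 ratio by a two-sided exact permutation test over all divisions of the ovaries into 5 and 5, adjusted over the 6 ratios tested, of which 5 are reported here. The smallest p that this design allows is 0.00794. It was reached by 4 of the 5 ratios, each with an adjusted p of 0.00952, which means that their phases did not overlap. How often ratios of other gene pairs do so was not computed. Of single genes, 28.4% did not overlap.

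SREBF1 was expressed at 0.593, 0.394, 0.493, 0.387 and 0.494 times SREBF2 in luteal ovaries 1 to 5, and at 0.866, 0.930, 0.923, 0.743 and 0.897 times SREBF2 in follicular ovaries 1 to 5. The phases did not overlap. The log2 ratio was -1.08 ± 0.25 in luteal and -0.20 ± 0.13 in follicular ovaries, a difference of -0.88 (SD, n = 5 each, exact permutation p = 0.00794). The balance of the SREBP genes therefore differed between the phases, although SREBF1 alone was not called.

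INSIG1 was measured at 1.81 to 5.38 times INSIG2 in luteal ovaries and at 0.836 to 1.44 times in follicular ovaries. The difference of the log2 ratio was 1.72 (exact permutation p = 0.00794). Protein was not measured, so the ratio to SCAP does not give the balance of the INSIG1 and SCAP proteins. INSIG1 RNA stood at 2.56, 2.16, 1.61, 5.44 and 4.22 times SCAP RNA in luteal ovaries 1 to 5. It stood at 0.889, 1.06, 0.969, 0.998 and 1.02 in follicular ovaries 1 to 5, near 1 to 1 in each of them. The difference of the log2 ratio was 1.55 (exact permutation p = 0.00794). Against SREBF2 the difference was 1.43 (exact permutation p = 0.00794), with ratios of 2.52 to 7.12 in luteal and 1.32 to 1.83 in follicular ovaries. INSIG1 alone already did not overlap, with a log2 fold change of 1.88 against 0.16 for INSIG2, 0.33 for SCAP and 0.45 for SREBF2. These ratios thus largely restate the difference of INSIG1 and are not separate results. Luteal ovary 3 had the lowest luteal value of each of these INSIG1 ratios. Without it the lowest was 3.21 against INSIG2, 2.16 against SCAP and 3.84 against SREBF2, and the differences of the log2 ratio were 1.98, 1.76 and 1.64.

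The ratio of the receptors NR1H3 to NR1H2 was 0.887 to 1.13 in luteal ovaries and 0.704 to 1.18 in follicular ovaries. The luteal range lay inside the follicular range. The difference of the log2 ratio was 0.16 (exact permutation p = 0.278). Without luteal ovary 3, which had the lowest luteal ratio, it was 0.21 (exact permutation p = 0.230). It ran from 0.08 without follicular ovary 5 to 0.26 without follicular ovary 2.

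**Figure D3:**
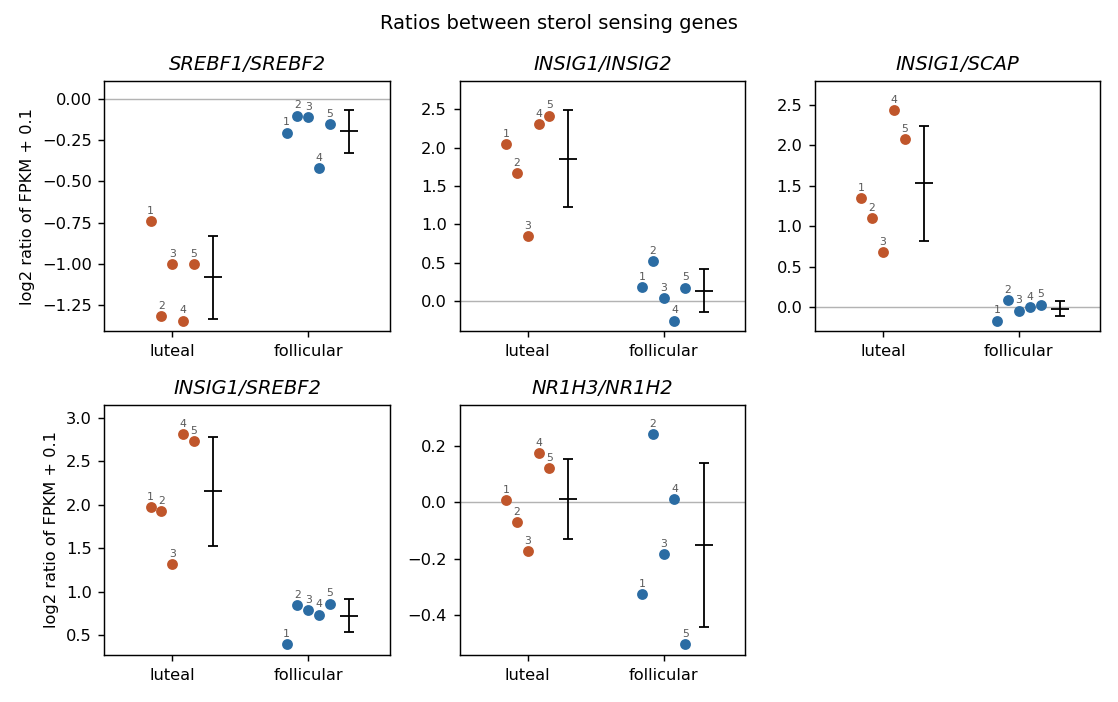
Log2 ratio of FPKM + 0.1 (y axis) of 5 pairs of genes within each ovary. Points are single ovaries with replicate numbers, bars give the mean and SD of 5 ovaries, and the grey line marks equal levels; of these 5 pairs only NR1H3/NR1H2 overlaps between the phases, and SREBF1/SREBF2 lies below the line in every ovary, at a mean of -1.08 in luteal and -0.20 in follicular ovaries.

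The 8 genes were then related to each other within the phases. The mean of each phase was subtracted from log2(FPKM + 0.1), and Pearson's r and Spearman's rho were computed over the 10 ovaries for all 28 pairs. Such an r rests mostly on the phase in which a gene spread more. INSIG1 had an SD of 0.71 in luteal and 0.16 in follicular ovaries, and NR1H2 had 0.028 and 0.13. The p-values come from all 14400 permutations within the phases, two-sided, and were adjusted over the 28 pairs. Of the pairs, 16 had a positive r, and the median r was 0.06. For r, 5 pairs had an unadjusted p under 0.05 and 0 an adjusted one. For rho these counts were 4 and 0.

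The 3 pairs with the highest r joined SREBF1, SREBF2 and SCAP. SREBF1 and SREBF2 had r = 0.832 (permutation p = 0.00444, adjusted p = 0.124) and rho = 0.879 (permutation p = 0.00292, adjusted p = 0.0817). Without follicular ovary 1 and luteal ovary 1, the farthest from the median, r was 0.777. SREBF2 and SCAP had r = 0.774 (permutation p = 0.00958, adjusted p = 0.134) and rho = 0.830 (permutation p = 0.00729, adjusted p = 0.102), with r = 0.691 without the same ovaries. SREBF1 and SCAP had r = 0.772 (permutation p = 0.0211, adjusted p = 0.197) and rho = 0.782 (permutation p = 0.0206, adjusted p = 0.193), with r = 0.661 without them.

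Luteal ovaries 1 and 5 were the highest of their phase for all 3 genes. In the follicular phase ovary 1 was the highest and ovary 4 the lowest for all 3. Without luteal ovary 4, SREBF2 and SCAP had r = 0.895 with an adjusted permutation p of 0.0194, and this was the only pair under 0.05 when single ovaries were left out. Markers of several cell types moved with these genes in part. Over the 10 ovaries, the phase-centred r of SREBF1, SREBF2 and SCAP was 0.63, 0.76 and 0.59 with granulosa cell markers, 0.69, 0.50 and 0.42 with theca cell markers, and 0.27, 0.64 and 0.50 with corpus luteum markers. These are descriptions over libraries that all genes share. The summed FPKM of the granulosa cell markers was highest in luteal ovaries 1 (639) and 5 (344) and in follicular ovary 1 (1054). It was 652 in follicular ovary 4, above the sum of each of follicular ovaries 2, 3 and 5 taken alone. INHA, INHBA and CYP19A1, none of them called, gave most of the granulosa sum, with mean FPKM of 215, 106 and 64.1. The called markers AMH, FOXL2 and FSHR had 14.8, 11.9 and 11.1, and their r alone was not computed. The theca sum was also highest in luteal ovaries 1 (146) and 5 (141), but in the follicular phase it was highest in ovary 2 (220). In the luteal ovaries LHCGR, the marker shared with the corpus luteum, gave most of this sum (74.2 to 103), and INSL3 and CYP17A1 together gave 17.1 to 69.2, so the luteal sum is not a measure of theca cells alone. With INSL3 and CYP17A1 alone, the r of SREBF1, SREBF2 and SCAP was 0.74, 0.41 and 0.67. The part of these markers in the relations was not tested.

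**Figure D4:**
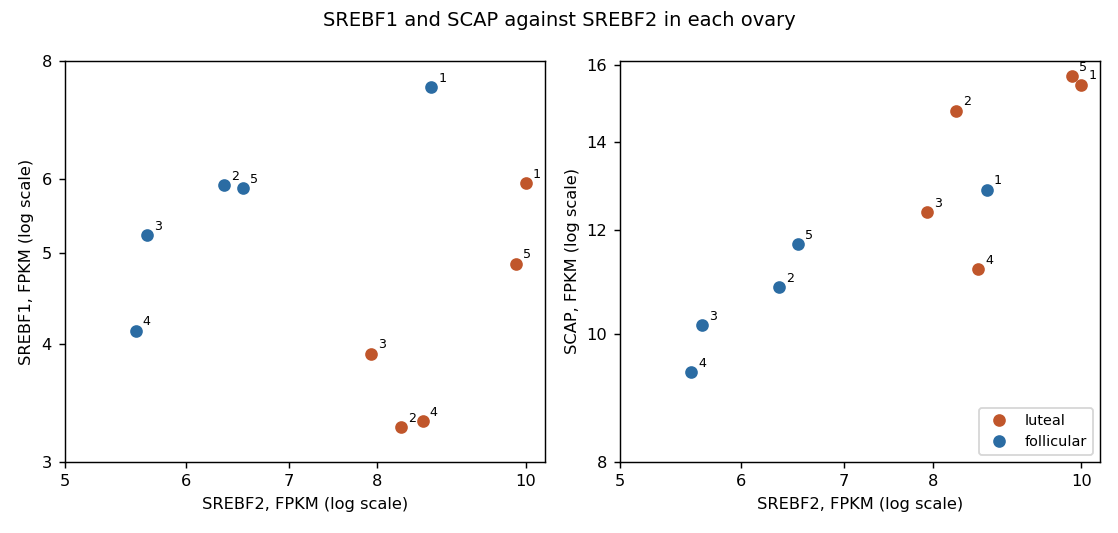
FPKM of SREBF1 (left) and SCAP (right) on the y axes against FPKM of SREBF2 on the x axes, all on log scales, with 1 numbered point per ovary. Within each phase the points with more SREBF2 tend to lie higher, and in the left panel the phases overlap on each axis but not in the ratio of SREBF1 to SREBF2, which was 0.387 to 0.593 against 0.743 to 0.930.

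The other pairs with an unadjusted p under 0.05 were SCAP with NR1H2 and INSIG1 with NR1H3. SCAP and NR1H2 had r = 0.609 (permutation p = 0.0283, adjusted p = 0.198) and rho = 0.661 (permutation p = 0.0356, adjusted p = 0.249). Without follicular ovary 4 and luteal ovary 4 r was 0.366, so the relation rested on these ovaries. INSIG1 and NR1H3 had r = 0.507 (permutation p = 0.0433, adjusted p = 0.242) and rho = 0.467 (permutation p = 0.175, adjusted p = 0.817). Without luteal ovaries 3 and 5 r was 0.274. INSIG1 and INSIG2 had r = 0.304 (permutation p = 0.431, adjusted p = 0.808) and rho = 0.309 (permutation p = 0.397, adjusted p = 0.882), with r = 0.355 without luteal ovaries 3 and 5. INSIG1 and MYLIP had r = -0.408 (permutation p = 0.311, adjusted p = 0.808) and rho = -0.03 (permutation p = 0.947, adjusted p = 0.978). Without luteal ovaries 3 and 5 r was 0.162, so its sign rested on them. Markers moved with these genes too. The phase-centred r with stroma markers was -0.65 for INSIG1, -0.74 for NR1H3 and 0.56 for MYLIP, and -0.25, -0.70 and 0.24 without luteal ovary 3. With smooth muscle markers INSIG1 had -0.77 and MYLIP 0.61, and -0.70 and 0.44 without that ovary. NR1H3 had -0.71 with macrophage markers (-0.82 without it). With oocyte markers NR1H2 had 0.72 and SCAP 0.38, and 0.82 and 0.67 without it, while NR1H3 had -0.68 and -0.60. With corpus luteum markers INSIG1 had 0.55 and MYLIP -0.58, and -0.006 and -0.27 without it. With endothelial markers INSIG1 had 0.29, and 0.77 without it. The part of these markers in the relations was not tested.

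Among the 14 transcripts of the genes, 4 were called, against 17.3% of all 32842 transcripts tested. They were the single transcripts of INSIG1 (limma adjusted p = 0.00189), MYLIP (0.00383) and SREBF2 (0.0436), and 1 of 5 SCAP transcripts. The calls of the INSIG1 and MYLIP transcripts held without any single ovary. At this level the SREBF2 call was lost when any of luteal ovaries 1, 2, 4 and 5 or follicular ovaries 2, 3, 4 and 5 was left out, with limma adjusted p from 0.0620 to 0.0966. The single transcripts of SREBF1 (limma adjusted p = 0.178) and INSIG2 (0.394) were not called. The called SCAP transcript, XM_018067072.1, was measured at an FPKM of 8.82 to 11.9 in luteal ovaries and 6.85 to 10.1 in follicular ovaries. Its log2 fold change was 0.48 (limma adjusted p = 0.0326), a call that was lost when any of luteal ovaries 1, 2, 3 and 5 or follicular ovaries 3, 4 and 5 was left out, with adjusted p from 0.0501 to 0.0755. It held 78.3 ± 3.71% of SCAP FPKM in luteal and 70.8 ± 7.84% in follicular ovaries (SD, n = 5 each, exact permutation p = 0.0794, adjusted over 3 genes 0.238), and the difference was 4.41 percentage points without follicular ovary 5. The other 4 SCAP transcripts had FPKM of at most 2.96 in any ovary, and XM_018067071.1 was listed at 0 in luteal ovaries 2 and 3.

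NR1H3 and NR1H2 each had 2 transcripts. NM_001285751.1 held 91.1 ± 1.11% of NR1H3 FPKM in luteal and 88.9 ± 4.06% in follicular ovaries (SD, n = 5 each, exact permutation p = 0.310). The minor transcript, XM_005690167.3, was at 1.495 to 2.37 in the luteal phase. In the follicular phase it was at 1.503 to 1.95 in ovaries 1, 3, 4 and 5 and at 4.49 in ovary 2, the ovary that also had the highest NR1H3 sum of its phase. Without follicular ovary 2 the difference of the NR1H3 shares was 0.513 percentage points. XM_018062857.1 held 78.2 ± 7.78% of NR1H2 FPKM in luteal and 73.3 ± 4.28% in follicular ovaries (SD, n = 5 each, exact permutation p = 0.246). How fragments shared by the transcripts of a gene were divided between them was the choice of the authors' software, and since each transcript is scaled by its own length the sums of SCAP, NR1H3 and NR1H2 can depend on it.

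For each gene, up to 3 of the genes most like it were taken by phase-centred r over the 10 ovaries among 11435 genes with a mean FPKM of at least 1. These values are a description, given without p, and the highest of so many is high by selection. For INSIG1 they rest mostly on the luteal ovaries and for NR1H2 mostly on the follicular ovaries, where these genes spread more. They were not repeated without luteal ovary 3. INSIG1 was most like PMVK (0.986), an enzyme of the mevalonate pathway, then PIM3 (0.955) and TMEM55B (0.944). The value of INSIG1 with PMVK was the highest of all those given here. SREBF1 was most like AKT1 (0.950), PPARGC1B (0.950) and APLNR (0.938). SREBF2 was most like SLC41A1 (0.959), VARS2 (0.939) and DHX30 (0.939). SCAP was like RPTOR (0.940), a subunit of the mTORC1 kinase, and DGKD (0.935). None of these lists held another of the 8 genes. INSIG2 was most like ARL6IP5 (0.943), COMMD8 (0.935) and BTNL9 (0.916). NR1H3 was most like CRCP (0.984), RBM28 (0.954) and DUSP12 (0.953). NR1H2 was most like CCNT2 (0.962), DUSP28 (0.959) and SNAP91 (0.957). MYLIP was most like IRF2BP2 (0.947), TMEM62 (0.936) and C1H3orf70 (0.924).

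The genes on which the sensors act were counted from lists, with up to 3 of the most abundant members of each list named. Their counts can be read against all tested genes, of which 15.9% were called higher, 27.8% lower and 43.7% in either direction. Among the list genes given below with a log2 fold change, leaving out luteal ovary 3 changed a call only for NPC2 and a sign only for LRP8, and RXRG then did not pass the filter on low values. Of 21 tested SREBP targets of cholesterol synthesis and uptake, 20 were higher in the luteal phase, 0 were lower, and 1, GGPS1, was not called. GGPS1, named after its value was seen, makes geranylgeranyl diphosphate on a side branch of the pathway. The median log2 fold change was 2.37, against -0.14 over all genes. MSMO1, a sterol demethylating oxidase, had a log2 fold change of 3.52, and HMGCS1, the HMG-CoA synthase, had 3.26. On the same scale SREBF2 had 0.45, SCAP 0.33 and INSIG1 1.88. The counts of this list were the same under the 3 other scalings and without luteal ovary 3.

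Of 11 tested SREBP targets of fatty acid synthesis, 11 were higher in the luteal phase, with a median log2 fold change of 0.88. SREBF1, better known as their activator, had a value of -0.43 that was not called. SCD, the stearoyl-CoA desaturase, had a log2 fold change of 0.77 (limma adjusted p = 0.0495), and it was not called after quantile normalization (limma adjusted p = 0.0716). ACLY, which makes cytosolic acetyl-CoA from citrate, had 1.69, and ACSS2, which makes it from acetate, had 2.98.

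Within the phases, INSIG1 and these targets could be set side by side ovary by ovary. The 21 cholesterol targets summed to FPKM of 3911, 3978, 2662, 4442 and 4346 in luteal ovaries 1 to 5. They summed to 642, 674, 483, 722 and 543 in follicular ovaries 1 to 5. Luteal ovary 3 was the lowest luteal ovary for the sum and for INSIG1, and ovaries 4 and 5 were the highest for both. In the follicular phase, ovary 4 had the highest sum and the lowest INSIG1. The same luteal ovary 3 had the highest MYLIP of its phase. The comparison with the sum was not repeated without luteal ovary 3, and the part of this ovary in these patterns was not tested.

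**Figure D5:**
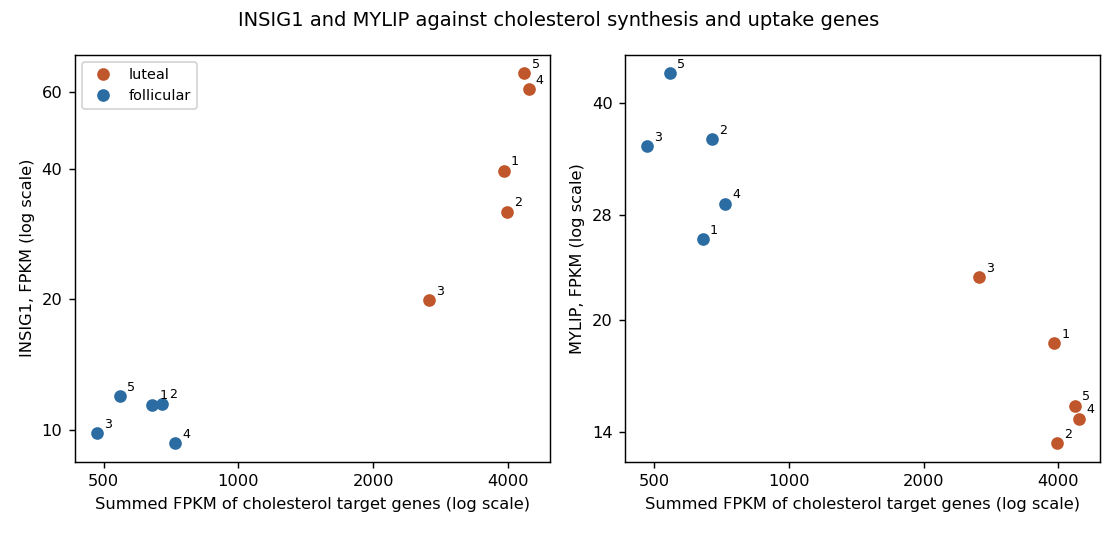
FPKM of INSIG1 (left) and MYLIP (right) on the y axes against the summed FPKM of the 21 cholesterol synthesis and uptake genes on the x axes, all on log scales, with 1 numbered point per ovary. Luteal ovary 3 (sum 2662) lies nearest to the follicular ovaries (sums of 483 to 722) in both panels, with the lowest INSIG1 (19.9) and the highest MYLIP (22.9) of its phase.

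Of 19 tested partners of SREBP processing and turnover, 4 were higher and 3 lower in the luteal phase, and 12 were not called. With 7 of 19 called, the list was near the 43.7% of all genes. The median log2 fold change was 0.01. PGRMC1, a partner of SCAP and INSIG1, had a log2 fold change of -0.03 (limma adjusted p = 0.741), which was 0.05 with a common median and 0.07 with TPM. SAR1A, a GTPase of the vesicle coat that carries SCAP, had 0.14 (limma adjusted p = 0.191), and SEC23A, another part of this coat, had 0.19 (limma adjusted p = 0.0420). With a common median 7 were higher and 2 lower. With FPKM rescaled to TPM, 7 were higher and 1 lower, and SAR1A was called (0.24, limma adjusted p = 0.0171). After quantile normalization SEC23A was not called (limma adjusted p = 0.137). SAR1B, the other GTPase of this coat, named after its value was seen, was higher in the luteal phase by 0.86 (limma adjusted p = 1.96e-05), the largest difference of the 19. Of the proteases that cleave SREBPs, named as such after their values were seen, MBTPS1 was lower in the luteal phase (-0.36, limma adjusted p = 0.0102, and 0.0926 with TPM) and MBTPS2 was not called (0.01, 0.909).

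For the LXR side, 10 receptor partners and coregulators were tested. Of these, 0 were higher and 4 were lower in the luteal phase, and 6 were not called, with a median log2 fold change of -0.27. The 4 of 10 called lower stand beside 27.8% of all genes, and after a shift to a common median or quantile normalization they were 3. NRIP1, a corepressor, had -0.61 (limma adjusted p = 0.000336). NCOR1, another corepressor, had -0.26 (limma adjusted p = 0.0319), and NCOA3, a coactivator, had -0.23 (limma adjusted p = 0.0944). The dimer partners of the LXRs, RXRA (-0.44, limma adjusted p = 0.0147) and RXRB (-0.39, limma adjusted p = 0.00121), were the other called genes, named after their values were seen. RXRG, the third RXR gene, had a mean FPKM of 0.0713 in luteal and 0.148 in follicular ovaries and was not called (-0.60, limma adjusted p = 0.105). With FPKM rescaled to TPM 2 of the 10, NRIP1 and RXRB, were called lower, RXRA was not (-0.34, limma adjusted p = 0.0854), and NCOR1 was not called after any of the 3 other scalings.

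Of 9 tested LXR targets besides the members, 3 were higher and 3 lower in the luteal phase, and 3 were not called. With a common median or with TPM 2 were lower. APOE, a lipoprotein component, had a log2 fold change of -0.52 (limma adjusted p = 0.00145). LPL, the lipoprotein lipase, had 1.08 (limma adjusted p = 0.0266), and PLTP, which transfers phospholipids, had -0.77 (limma adjusted p = 0.0160). The LXR targets thus did not move in 1 direction, and MYLIP (-0.997) had the sign of APOE and PLTP. ABCA1, the cholesterol exporter, named after its value was seen, was not called (-0.16, limma adjusted p = 0.486). Of the enzymes that form or remove oxysterols, 2 were tested. HSD3B7 was higher in the luteal phase (0.66, limma adjusted p = 0.0396), and CH25H, which makes 25-hydroxycholesterol, was not called (-0.11, limma adjusted p = 0.610).

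Of 8 tested substrates and partners of MYLIP, 2 were higher in the luteal phase, 0 were lower and 6 were not called, against 15.9% of all genes called higher. VLDLR, a receptor that MYLIP marks for degradation, named after its value was seen, was among the called genes (1.01, limma adjusted p = 0.00257). LRP8, another receptor that it marks and named likewise, was not called (-0.22, limma adjusted p = 0.728), and its sign turned without luteal ovary 3 (0.12, 0.842). The ubiquitin-conjugating enzymes UBE2D3 (-0.07, limma adjusted p = 0.569) and UBE2D2 (-0.08, 0.284) were not called. Both signs turned with a common median (0.013 and 0.0086) and with TPM (0.027 and 0.022).

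Of 10 tested genes of cholesterol uptake, transport and storage, 5 were higher and 1 was lower in the luteal phase, and 4 were not called. The median log2 fold change was 0.38, and with TPM 6 were higher and 0 lower. SCARB1, the receptor for high density lipoprotein, had 4.01, and LIPA, the lysosomal acid lipase, had 1.51. NPC2, which carries cholesterol out of lysosomes, had 0.43 (limma adjusted p = 0.0396) and was not called after quantile normalization (limma adjusted p = 0.138) or without luteal ovary 3 (limma adjusted p = 0.0649).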

How the data were processed

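Directional paired-end libraries without ribosomal RNA were made from 10 ovaries, 5 per phase. The authors used HISAT2 to align the reads, StringTie to assemble transcripts and Cuffdiff to compute the deposited FPKM per transcript and ovary, without pooling. The genome build is not given in the sources used here, and no coordinates or sequences are reported. No counts were used here, so the depth of each ovary is unknown, and the spread between ovaries is the only error.

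FPKM of protein-coding transcripts were summed by gene symbol. Genes (15359) and, separately, transcripts (32842) reaching 0.1 FPKM in 5 or more ovaries were tested with limma 3.58.1 (lmFit, eBayes with trend) in R 4.3.3 on log2(FPKM + 0.1), two-sided. A log2 fold change on this scale understates the change of low genes. Ratios, transcript shares and relations used exact permutations in Python 3.11.15 with numpy 2.4.6, pandas 2.3.3 and scipy 1.17.1, and figures matplotlib 3.10.9. The limma step was tested on simulated data.

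The members and gene lists were chosen with earlier results of these data known. Named genes were all members, the 3 most abundant genes of each pathway list and the 3 genes most like each member. Cell markers and the few genes so described in the text were named outside this rule. Some items are withheld and not reported here, although counts, sums and adjustments include them. CYP11A1 and CYP17A1 were matched by gene ID. Genes of the lists with no row in the table were not analysed here. The alternatives tried were other pseudocounts (1 and 0.01), other filters (none, or 0.5 FPKM), other scalings (TPM, quantile normalization, a common median), a replicate block, eBayes without trend, the most abundant transcript alone and leaving out each ovary. Counts of the lists under the other scalings, counts and marker relations without luteal ovary 3, and the theca markers without LHCGR were added after the data were seen.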

Additional observations from a re-analysis of the deposited data

Results flagged for a closer look

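In 84 groups of 5 ovaries the highest or lowest value was compared with the rest, and 5 values stood far from the others, where chance alone would give about 1 in 20 groups. Luteal ovary 3 had a summed FPKM of corpus luteum markers of 5768 against 7478 to 7930 in the other luteal ovaries. Follicular ovary 2 gave a pair of them. The NR1H3 transcript XM_005690167.3 had an FPKM of 4.49 there against 1.503 to 1.95, and the enzymes that form or remove oxysterols summed to 36.0 against 19.2 to 22.5. The SCAP transcript XM_018067070.1 had an FPKM of 0.617 in follicular ovary 3 against 1.10 to 1.17. Of the blood markers the table held PTPRC, a leukocyte gene, and ALAS2. They summed to 16.7 in follicular ovary 5 against 7.10 to 9.33, and in that ovary the whole sum was PTPRC.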

How the results depend on the processing

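INSIG1 (1.70 to 2.13), MYLIP (-1.11 to -0.90) and SREBF2 (0.40 to 0.56) kept their direction and call as genes in all 20 alternatives, and 4 of the 5 reported ratios kept theirs in all 12. Apart from SREBF1/SREBF2, these 4 ratios share INSIG1. INSIG2 and NR1H2 were not called in any of the 20. The number of members called ran from 3 to 5, of genes from 4926 to 7020 and of transcripts from 4013 to 5690. SREBF1 was called with the replicate block (-0.43, limma adjusted p = 0.0181) and ran from -0.56 to -0.33 when single ovaries were left out. SCAP lost its call with no filter (0.33, limma adjusted p = 0.0599) and with eBayes without trend (0.33, 0.0522), and ran from 0.28 to 0.41 without single ovaries. NR1H3 was called with TPM (0.34, limma adjusted p = 0.0237) and with its most abundant transcript (0.28, 0.0480), and ran from 0.19 to 0.33 without single ovaries. The NR1H3 transcript XM_005690167.3, not called in any alternative, changed sign with a common median (0.066), without luteal ovary 3 (0.08) and without follicular ovary 2 (0.24), and ran from -0.14 to 0.24. The number of related pairs was 0 to 1 without single ovaries. The cause of these changes was not tested. The share of calls that were higher in the luteal phase was 36.3%, and 48.8% with a common median, 41.8% after quantile normalization and 52.5% with TPM. Ovaries of equal number shared only a number (correlations of their deviations of 0.0258, 0.199, 0.192, 0.0876 and 0.0358), and luteal ovaries 2 and 4 alone correlated best with their own number. The block for it gave 7020 called genes against 6711, 4458 called transcripts against 5677, and among the 8 genes changed only the call of SREBF1. The depth of each ovary is unknown, so counting error of the low SCAP transcripts could not be given.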
